A study of Mus musculus with 21 samples.

Results

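The genes examined here encode 8 surface and membrane molecules that are used to define B-1 cells or are known to be high in them. They were chosen by gene symbol and all 8 were matched, out of 56953 genes in the files: Cd5, Spn, Cd9, Ctla4, Pdcd1lg2, Plscr1, Ptprc and Cd80. RNA was sequenced from B cells sorted from the peritoneal cavity of C57BL/6 mice, in 21 libraries. The mice were either WT or TET2-KO, a global knockout made from a conditional allele by deletion of the catalytic exons of Tet2, so every cell type of a TET2-KO mouse carries the deletion. B-1a cells gave 4 WT and 4 TET2-KO libraries, B-1b cells 4 WT and 3 TET2-KO libraries, and B-2 cells 2 WT and 4 TET2-KO libraries. The mice were described as young, without an age in the sources used here. B-1 cells were gated as cells low for IgD, CD23 and B220, and B-1a and B-1b cells were separated by the presence or absence of CD5. The gate for B-2 cells is not described in detail in the sources used here. Nothing in the labels states that equal library numbers mark the same mouse, and p-values measure the spread between these libraries.

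B-1 cells are long-lived innate-like B cells of the serosal cavities, which make natural IgM and respond to many antigens without T cell help. CD5 on B-1a cells dampens signals of the B cell receptor, and CD45, the phosphatase encoded by Ptprc, sets the activity of the kinases that start those signals. CD80 and PD-L2 (Pdcd1lg2) belong to the B7 family of ligands, which are read by the CD28 family of receptors on T cells, and CTLA-4 is an inhibitory member of that family that binds CD80. TET2 oxidizes methylated cytosine, mostly at CpG dinucleotides.

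The gates bear on some of the genes. CD5 protein was the gate between B-1a and B-1b cells, so the level of Cd5 RNA between these subsets is a check of the sort rather than a finding. The same holds for Cd5 in B-1a against B-2 cells, since B-1a cells were selected for CD5. B220 is a long isoform of CD45, but the counts are per gene and do not separate the isoforms of Ptprc. Fcer2a, which encodes CD23, and Ighd, which encodes IgD, were checked with the same aim.

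Levels are given as CPM, the counts of a gene scaled to a library total of 1000000 and normalised over the 21 libraries. Total counts ranged from 9667187 to 24152518 per library. The lowest count of any of the 8 genes in any library was 29, for Cd5, so each gene was detected in every library. Whether the lowest levels of Cd5 lie above the background of these libraries was not tested. The macrophage list, with 11 genes, summed to between 4357 and 30311 CPM per library, most of it Lyz2, and none of its genes was at 0 throughout a group. The T cell list summed to between 447 and 2070 CPM per library, most of it Cd2, which mouse B cells also make, and to between 0.509 and 29.9 CPM without Cd2 and Cd3g, whose own values are given beside Ctla4. Tet2 itself ranged from 8.45 to 27.2 CPM in WT and from 12.6 to 30.3 CPM in TET2-KO libraries. Gene counts include the exons outside the deletion, so this level does not check the genotype.

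The sort genes set 5 libraries apart, all of them labelled WT 1 or WT 2. In the TET2-KO libraries Cd5 was at 15.9 to 21.1 CPM in B-1a, 2.95 to 5.09 CPM in B-1b and 1.73 to 3.03 CPM in B-2 cells, and Fcer2a at 4.61 to 17.5, 31.5 to 42.6 and 484 to 832 CPM. The library labelled B-1a WT 1 had 5.15 CPM of Cd5 and 814 CPM of Fcer2a, and B-1a WT 2 had 1.64 and 18.3 CPM. The library labelled B-1b WT 1 had 18.6 CPM of Cd5 and 17.3 CPM of Fcer2a, and B-1b WT 2 had 3.20 and 597 CPM. In the library labelled B-2 WT 1 Fcer2a was at 24.2 CPM and Zbtb32, a factor known to be high in B-1 cells, at 470 CPM, against 53.3 to 99.3 CPM in B-2 libraries of TET2-KO mice. These levels go against the labels of the subset. The 5 libraries also had fewer genes with a count, 18074 to 19255, against 25898 to 29339 in the other WT libraries. Leaving them out therefore changes more than the subset markers. Among TET2-KO libraries this number ran from 17816, in B-1b library 3, to 35576, and was 18941 in B-1a library 4. The cause of this difference was not tested. The labels were kept, and results that use WT libraries are given with and without these 5, which are called the discordant libraries here.

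**Figure D1:**
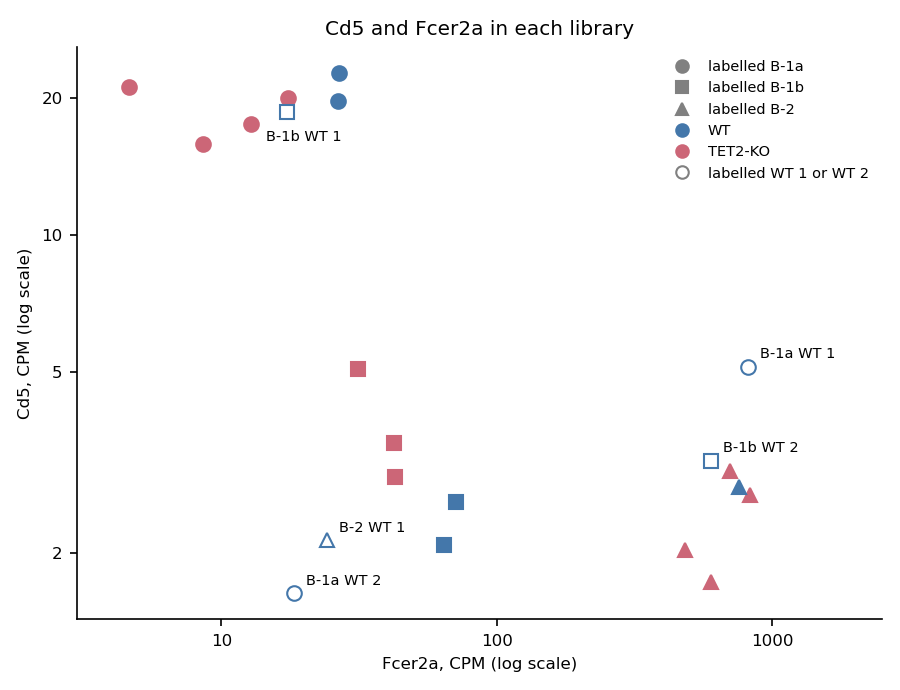
Level of Cd5 (y axis, CPM, log scale) against Fcer2a (x axis, CPM, log scale) in each of the 21 libraries. Shapes give the labelled subset, colours the genotype, and open symbols the 5 discordant libraries, labelled WT 1 or WT 2, which lie away from the other libraries of their label.

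The position of the genes, in GRCm39, was taken from the files. Cd5 (ENSMUSG00000024669.9) lies at chr19:10694480-10716366 on the minus strand and Pdcd1lg2 (ENSMUSG00000016498.11) at chr19:29388319-29448561 on the plus strand of the same chromosome. Ctla4 (ENSMUSG00000026011.14) lies at chr1:60926159-60954991 on the plus strand, and Ptprc (ENSMUSG00000026395.17) at chr1:137990599-138103446 on the minus strand. Spn (ENSMUSG00000051457.8) lies at chr7:126731404-126736995 and Cd9 (ENSMUSG00000030342.9) at chr6:125437229-125471754, both on the minus strand. Plscr1 (ENSMUSG00000032369.14) lies at chr9:92131803-92154331 and Cd80 (ENSMUSG00000075122.6) at chr16:38275923-38316697, both on the plus strand. Cd9 shares 218 of its 2044 exon bases with Gm26728 on the opposite strand, and fragments that fall on both genes were not counted. The other 7 genes share no exon base with another gene.

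Because TET2 acts at CpG dinucleotides, the letters CG were counted in windows of 300 bases, from 250 bases before the annotated start to 50 bases from it on. CG reads the same on both strands. Over the windows of 21770 genes, 94.9% held at least 1 CpG, with a median of 11. Cd9 had 20 in its window, above this median, and the other 7 genes had between 3 and 8 in the windows of their canonical transcripts. Methylation was not measured in these libraries, and the gene counts do not tell which start was used. Pdcd1lg2 is the member with the largest difference between genotypes in B-1a cells, and Ctla4 the member with the largest difference between subsets. The annotation of Ctla4 begins at chr1:60926159, before the window of its canonical transcript, and other starts of Ctla4 were not examined. The windows of both annotated starts of Pdcd1lg2 and of the canonical transcript of Ctla4 are shown 5′ to 3′ with each CpG in capitals.
Pdcd1lg2-201, chr19:29388069-29388368, plus strand: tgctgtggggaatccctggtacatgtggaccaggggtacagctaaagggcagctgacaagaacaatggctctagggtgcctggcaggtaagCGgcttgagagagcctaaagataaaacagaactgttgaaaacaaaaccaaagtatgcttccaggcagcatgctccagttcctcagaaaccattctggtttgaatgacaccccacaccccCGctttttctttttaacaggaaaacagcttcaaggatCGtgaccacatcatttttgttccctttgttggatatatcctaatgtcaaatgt
Pdcd1lg2-202, chr19:29399209-29399508, plus strand: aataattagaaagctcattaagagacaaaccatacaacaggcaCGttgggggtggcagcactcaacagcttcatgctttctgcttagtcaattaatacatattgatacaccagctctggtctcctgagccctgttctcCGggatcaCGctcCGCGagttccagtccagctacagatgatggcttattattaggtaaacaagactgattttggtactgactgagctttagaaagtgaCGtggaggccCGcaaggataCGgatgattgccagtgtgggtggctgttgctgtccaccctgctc
Ctla4-201, chr1:60947934-60948233, plus strand: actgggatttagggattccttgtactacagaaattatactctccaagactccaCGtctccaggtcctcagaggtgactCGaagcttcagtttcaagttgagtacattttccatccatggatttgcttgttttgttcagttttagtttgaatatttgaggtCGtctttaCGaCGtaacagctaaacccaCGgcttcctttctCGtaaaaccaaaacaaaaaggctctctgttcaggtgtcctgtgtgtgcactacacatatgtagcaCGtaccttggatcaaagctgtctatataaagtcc

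Divided by gene length, the level of the 8 genes in TET2-KO B-1a libraries spanned a wide range. Cd9 was highest at 215 CPM per kb, followed by Plscr1 at 78.5, Ctla4 at 57.5 and Ptprc at 28.5 CPM per kb. Spn at 7.43, Pdcd1lg2 at 7.24, Cd80 at 5.68 and Cd5 at 3.78 CPM per kb were lower. In TET2-KO B-2 libraries the order was Cd9, Ptprc, Plscr1, Pdcd1lg2, Ctla4, Spn, Cd80 and Cd5, from 101 down to 0.481 CPM per kb. Ptprc, at 34.4 CPM per kb, thus came next to Cd9 in B-2 libraries, where Ctla4 was at 5.05 CPM per kb. The order of the genes is a description of these means, and neighbours in it were not tested against each other.

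**Figure D2:**
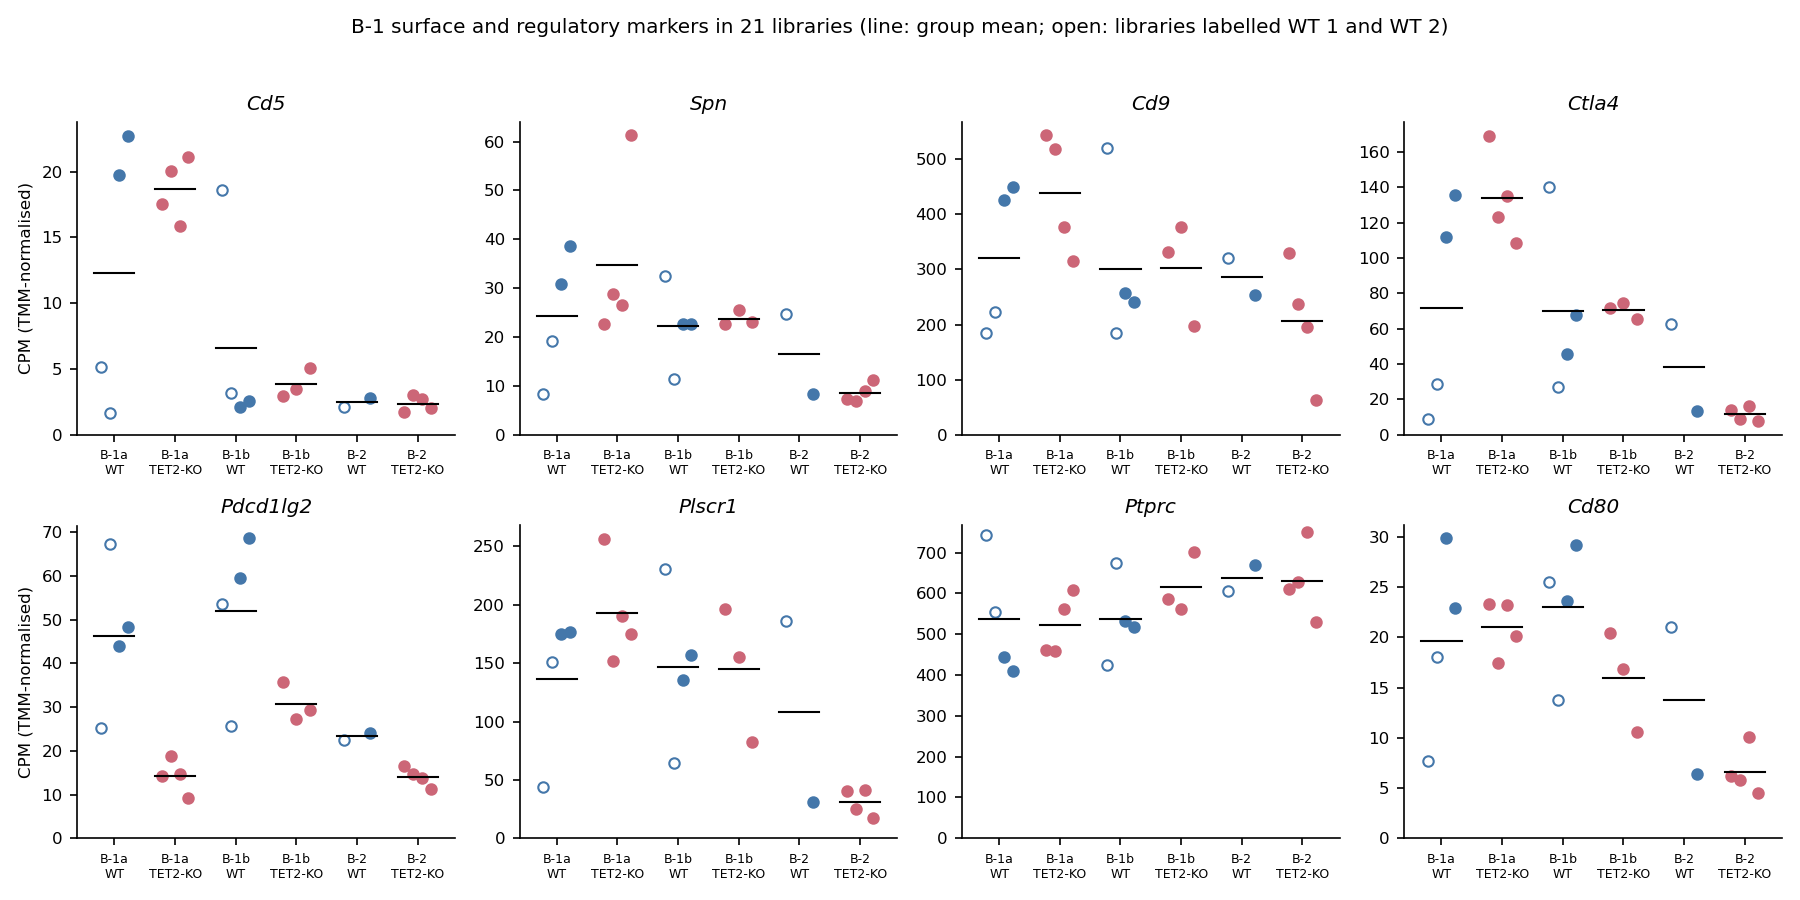
Level of the 8 genes (y axis, CPM, from 0) in each library, by labelled subset and genotype (x axis). Points are libraries, lines are group means, and open points are the discordant libraries. Ctla4 and Plscr1 are high in both TET2-KO B-1 groups and low in those of B-2 cells, Cd5 is high in TET2-KO B-1a libraries, and Pdcd1lg2 is lower in TET2-KO than in WT B-1a libraries.

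The subsets were compared first among the 11 TET2-KO libraries, since none of them went against its label. Relative to B-2 cells, B-1a cells had higher levels of Cd5, Spn, Ctla4, Plscr1 and Cd80, by 3.10-fold to 11.1-fold, and B-1b cells had higher levels of Spn, Ctla4, Plscr1, Cd80 and Pdcd1lg2, by 2.12-fold to 5.83-fold. These are 5 of the 8 genes in either comparison at an adjusted p of 0.05, with none lower, whereas 3.26% and 1.52% of all 18555 genes tested were higher in B-1a and B-1b cells. In both directions together 5.82% and 2.15% were called. The 5 genes for B-1a cells include Cd5, and these cells were selected for CD5. Its call and its share in the B-1a median below are a check of the sort. The count of 5 held for B-1a cells in all 11 fits with a library left out. For B-1b cells it was 2 or 3 in 8 of these 11 fits and 0 with all 21 libraries in 1 fit, where the adjusted p was 0.123 for Ctla4 and 0.0994 for Plscr1. The same genes had groups that did not overlap, as did 8.9% of all genes with B-1a cells higher and 7.99% with B-1b cells higher. Among the 8 genes the median log2 fold change was 1.80 in B-1a and 1.15 in B-1b cells, beside -0.05 and -0.10 over all genes tested. The comparisons share their B-2 libraries, and the genes were chosen in part because they are known to be high in B-1 cells. In RNA from pooled cells, fewer cells of a type and less RNA per cell cannot be told apart.

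Ctla4, the inhibitory receptor of the CD28 family, differed most. It was at 169, 124, 135 and 109 CPM in the 4 TET2-KO B-1a libraries, at 71.6, 74.4 and 65.6 CPM in the 3 TET2-KO B-1b libraries, while the 4 B-2 libraries of the same genotype had 13.9, 8.74, 16.6 and 7.85 CPM. The 3 groups did not overlap, with B-1a above B-1b and B-1b above B-2. Its log2 fold change was 3.48 ± 0.25 (SE) for B-1a and 2.54 ± 0.25 for B-1b against B-2 cells, with adjusted p of 1.03e-06 and 3.79e-05 by edgeR's quasi-likelihood test. T cells also make Ctla4. The T cell list without Cd2 and Cd3g summed to 5.29 to 15.6 CPM in B-1a and 8.32 to 15.8 CPM in B-2 libraries of TET2-KO mice, and these ranges overlap. Cd3g, the member of the list that passed the test (log2 fold change 1.89 ± 0.38, adjusted p = 0.00713), was at 12.9 to 36.5 CPM in B-1a and at 3.38 to 8.53 CPM in B-2 libraries, without overlap. The whole list, most of it Cd2, summed to 745 to 1194 CPM in B-1a and 447 to 1075 CPM in B-2 libraries. The part of T cells in the level of Ctla4 was not tested.

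Plscr1, an interferon-inducible phospholipid scramblase, was also higher in both B-1 subsets. It was at 256, 152, 191 and 175 CPM in B-1a, at 196, 156 and 82.8 CPM in B-1b, and at 40.2, 24.8, 41.4 and 17.2 CPM in B-2 libraries. Every B-1 library lay above every B-2 library, and the B-1a and B-1b libraries overlapped. The log2 fold change against B-2 cells was 2.62 ± 0.31 in B-1a (adjusted p = 8.32e-05) and 2.19 ± 0.32 in B-1b cells (adjusted p = 0.00129). Of 14 other interferon-stimulated genes, 0 passed the test in either comparison, with medians of -0.21 in B-1a and -0.03 in B-1b cells. Of 5 other scramblase genes, 0 passed.

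Spn encodes CD43, a heavily glycosylated sialomucin that is part of the usual definition of B-1 cells. Its level was 22.7, 28.7, 26.5 and 61.3 CPM in B-1a, 22.8, 25.5 and 23.0 CPM in B-1b, and 7.41, 6.84, 9.02 and 11.2 CPM in B-2 libraries. All B-1 libraries were above all B-2 libraries, and library 4 of the B-1a group stood apart from the other 3. Relative to B-2 cells Spn had log2 fold changes of 1.97 ± 0.29 in B-1a (adjusted p = 0.000631) and 1.42 ± 0.31 in B-1b cells (adjusted p = 0.0238). Without the B-1a library of 61.3 CPM the value in B-1a cells was 1.56, the lowest of the 11 fits with a library left out, and it passed the test in all 11. The B-1b value passed in 6 of 11, and its call was also lost with the size factors of DESeq2 in edgeR (adjusted p = 0.0511), with at least 10 counts in every library (0.0539) and with all 21 libraries in 1 fit (0.138).

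Cd80, the ligand of CD28 and CTLA-4, was at 23.3, 17.4, 23.3 and 20.1 CPM in B-1a, 20.4, 16.9 and 10.6 CPM in B-1b, and 6.21, 5.78, 10.1 and 4.46 CPM in B-2 libraries. The lowest B-1b library came close to the highest B-2 library without overlap. Log2 fold changes against B-2 cells were 1.63 ± 0.28 in B-1a (adjusted p = 0.00191) and 1.23 ± 0.29 in B-1b cells (adjusted p = 0.0392). The B-1a value passed the test in all 11 fits with a library left out, and the B-1b value in 3 of 11.

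Pdcd1lg2, the ligand PD-L2 of the receptor PD-1, was called against B-2 cells for B-1b but not for B-1a cells among the TET2-KO libraries. It was at 14.3, 18.8, 14.6 and 9.10 CPM in B-1a, 35.7, 27.3 and 29.3 CPM in B-1b, and 16.5, 14.7, 13.8 and 11.4 CPM in B-2 libraries of TET2-KO mice. The B-1a range held the B-2 range, and the B-1b libraries lay above both. The log2 fold change was 1.08 ± 0.24 for B-1b against B-2 cells (adjusted p = 0.0299), -0.02 ± 0.23 for B-1a against B-2 cells (adjusted p = 0.967), and -1.10 ± 0.24 for B-1a against B-1b cells (adjusted p = 0.132). The call for B-1b against B-2 cells held in 3 of 11 fits with a library left out, with adjusted p from 0.00669 to 0.148. The order of the subsets may differ in WT mice. Without the discordant libraries, WT B-1a libraries were at 43.9 and 48.3 CPM and WT B-1b libraries at 59.6 and 68.5 CPM. The WT B-2 library that remained was at 24.1 CPM. B-1 and B-2 cells of WT mice were not tested against each other.

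Cd5, as the gate implies, was at 17.6, 20.01, 15.9 and 21.1 CPM in B-1a libraries of TET2-KO mice, against 2.95, 3.50 and 5.09 CPM in B-1b and 1.73, 3.03, 2.68 and 2.03 CPM in B-2 libraries. B-1a cells stood above both others without overlap, while B-1b and B-2 libraries overlapped. B-1a cells had a log2 fold change of 2.94 ± 0.30 against B-2 cells (adjusted p = 2.17e-05) and of 2.28 ± 0.33 against B-1b cells (adjusted p = 0.00834). The latter call was lost without B-1b library 1 (2.14, adjusted p = 0.0535). For B-1b against B-2 cells it was 0.66 ± 0.31 (adjusted p = 0.258).

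Cd9, a tetraspanin found on B-1 cells, marginal zone B cells and macrophages, did not pass the test. It was at 543, 518, 377 and 315 CPM in B-1a, 332, 377 and 197 CPM in B-1b, and 329, 237, 195 and 63.0 CPM in B-2 libraries, so that the groups overlapped. The log2 fold change against B-2 cells was 1.06 ± 0.38 in B-1a (adjusted p = 0.115) and 0.52 ± 0.41 in B-1b cells (adjusted p = 0.504). Timd4, a receptor of resident peritoneal macrophages, was at 279, 182, 122 and 22.1 CPM in the same B-1a libraries and at 224, 154, 133 and 22.4 CPM in the same B-2 libraries, in the same order as Cd9 within either group, a likeness seen after the values were known. In B-1b libraries Timd4 was at 155, 124 and 61.8 CPM, in another order than Cd9. The part of macrophage RNA in the level of Cd9 was not tested. Of the 14 other tetraspanins and CD9 partners, 0 passed the test in either comparison.

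Ptprc was at 461, 459, 562 and 609 CPM in B-1a, 587, 562 and 701 CPM in B-1b, and 610, 629, 749 and 529 CPM in B-2 libraries. The groups overlapped, with log2 fold changes against B-2 cells of -0.30 ± 0.17 (adjusted p = 0.301) and -0.07 ± 0.19 (adjusted p = 0.872).

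**Figure D3:**
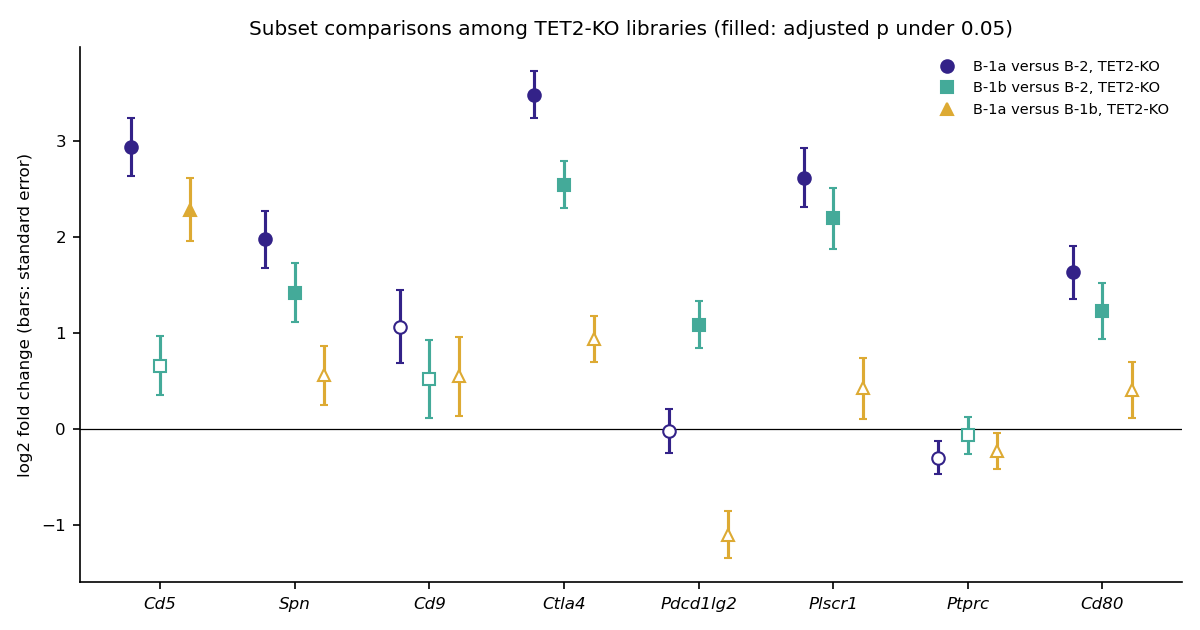
Log2 fold change of the 8 genes (y axis, with standard errors) in the 3 comparisons of subsets among TET2-KO libraries. Filled symbols passed an adjusted p of 0.05: 5 genes for B-1a against B-2, 5 for B-1b against B-2, and Cd5 for B-1a against B-1b. Cd5, for which B-1a cells were selected, is among the 5 for B-1a against B-2.

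B-1a and B-1b cells of TET2-KO mice were then compared directly. Cd5 was the member that passed, beside 0.0108% of all genes that were called higher in B-1a cells. Cd5 and Ctla4 lay above and Pdcd1lg2 below without overlap, as did 2.98% and 3.07% of all genes. Ctla4 was 0.93 ± 0.24 higher on the log2 scale, and its adjusted p was 0.310. Libraries of these groups with the same number deviated together from their group means, and with the number as a block the log2 fold change of Ctla4 was 1.04, with an adjusted p of 0.0418. The block thus raised the number of members called from 1 to 2. The log2 fold changes of Spn (0.56), Cd9 (0.55), Plscr1 (0.42), Cd80 (0.40) and Ptprc (-0.23) had adjusted p between 0.858 and 0.873.

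Genes that act with the members gave context for these differences. Of 14 other genes of the CD28 and B7 families and related receptors, 8 had enough counts to be tested, and 2 passed in either comparison with B-2 cells. Cd274, which encodes the other PD-1 ligand PD-L1, was higher by 1.22 ± 0.20 in B-1a and by 1.28 ± 0.21 in B-1b cells on the log2 scale, with adjusted p of 0.00150 and 0.00363. Icosl, the ligand of ICOS, was lower, with log2 fold changes of -3.10 ± 0.26 in B-1a and -2.73 ± 0.29 in B-1b cells. Cd86, the other ligand of CTLA-4, was at 89.6 ± 20.2 (SD, n = 4) CPM in B-1a, 93.2 ± 33.9 (n = 3) in B-1b and 79.3 ± 28.9 (n = 4) in B-2 libraries. Pdcd1, which encodes PD-1, was under 1 CPM in every TET2-KO library.

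Of 14 partners of CD5 and CD45 in antigen receptor signalling, 13 were tested. Ptpn22, a phosphatase that restrains antigen receptor signals, was higher than in B-2 cells by 2.03 ± 0.30 in B-1a and 1.87 ± 0.32 in B-1b cells on the log2 scale. Ubash3b, a phosphatase of the same pathway, was higher by 2.00 ± 0.18 and 1.38 ± 0.19. Cd72, an inhibitory B cell receptor, had log2 fold changes of -1.19 ± 0.33 in B-1a and -1.49 ± 0.36 in B-1b cells, and Pag1, an adaptor that recruits the kinase Csk, of -1.56 ± 0.33 in B-1a cells. The remaining tested partners, 9 in B-1a and 10 in B-1b cells, did not pass.

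Marker lists checked the labels of the subsets. Of 7 other genes known to be high in B-1 cells, 6 were higher in B-1a and 4 in B-1b than in B-2 cells, among them Zbtb32, by 2.60 ± 0.22 and 2.57 ± 0.23 on the log2 scale. Of 7 genes high in B-2 cells, 5 were lower in B-1a and 3 in B-1b cells, beside 2.57% and 0.631% of all genes tested. Both counts include Fcer2a and Ighd, whose proteins were gates of the sort. Fcer2a had log2 fold changes of -5.94 ± 0.38 in B-1a and -4.12 ± 0.39 in B-1b cells. Some markers of other cells differed too: Cd3g was higher in B-1a cells by 1.89 ± 0.38, Jchain was higher in B-1a cells by 2.25 ± 0.53 and in B-1b cells by 3.88 ± 0.58, and Flt3 had log2 fold changes of -4.50 ± 0.74 and -3.67 ± 0.79. Cd3e and Trac, which define T cells, were at or under 3.47 CPM in every TET2-KO library. Of 11 macrophage markers, 0 passed in any of the 3 comparisons, with sums of 4833 to 28844 CPM in B-1a, 6319 to 15239 CPM in B-1b and 4357 to 19772 CPM in B-2 libraries. Against B-2 cells, 10 of the 11 had log2 fold changes above 0 in B-1a and 2 in B-1b cells. Between B-1a and B-1b cells all 11 were above 0 (median 0.45). Of 7 tested mast cell and platelet markers, 4 in B-1a and 0 in B-1b cells were above 0 against B-2 cells. All 7 were above 0 between B-1a and B-1b cells (median 0.92), and 0 passed. The part of these markers in the results was not tested.

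Among the WT libraries no member passed the test between B-1a and B-1b cells. With all 4 libraries of either subset the log2 fold changes ran from -0.24 to 0.91 and the adjusted p was 1.00 for each, with 0% of all genes called. The groups overlapped for all 8 genes, and 0.614% and 0.537% of all genes had B-1a libraries above or below without overlap. Across all genes 206 had an unadjusted p under 0.05 by edgeR, and DESeq2 called 0 genes. Without the discordant libraries, 3 of the 7 genes other than Cd5 were higher in B-1a cells, beside 2.16% of all genes tested. Cd5 was among the levels that set these libraries apart, so its values are given with no test. The choice also bears on other genes that differ between subsets, since the libraries were left out for levels of subset markers. Ctla4, for example, was at 140 CPM in B-1b WT 1 and at 9.22 CPM in B-1a WT 1. The calls in this fit therefore describe the remaining libraries and are not separate support. This fit rests on 2 libraries of either B-1 subset and 1 of B-2 cells, which is assumed to vary like the others.

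Cd5 was at 19.7 and 22.7 CPM in B-1a against 2.09 and 2.59 CPM in B-1b libraries that remained. The 3 genes called were Ctla4, Cd9 and Spn. Ctla4 was at 112 and 136 CPM against 45.9 and 67.7 CPM (log2 fold change 1.14 ± 0.17, adjusted p = 0.000425). Cd9 was at 425 and 449 CPM against 257 and 241 CPM (0.83 ± 0.14, adjusted p = 0.000407), and Spn at 30.8 and 38.7 CPM against 22.7 and 22.7 CPM (0.63 ± 0.17, adjusted p = 0.0361). Pdcd1lg2 was at 43.9 and 48.3 CPM in B-1a and 59.6 and 68.5 CPM in B-1b libraries (-0.46 ± 0.15, adjusted p = 0.0958). Of 11 macrophage markers 7 were higher in the same B-1a libraries (median 0.74 on the log2 scale), and so were 4 of 9 mast cell and platelet markers and 2 of 10 T cell markers. Their part in the result was not tested.

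The genotypes were then compared in every subset on its own. None of the 8 genes passed the edgeR test. With DESeq2, the tool the study used, Pdcd1lg2 passed in B-1a cells, as given below. Of all genes tested 0.0503% were called in B-1a cells, 0.00718% as higher and 0.0431% as lower in TET2-KO libraries, and 0% were called in B-1b and in B-2 cells. At an unadjusted p under 0.05, edgeR gave 1093 genes in B-1a, 787 in B-1b and 1754 in B-2 cells, and DESeq2 called 185, 49 and 147 genes at an adjusted p under 0.05. Pdcd1lg2 had the smallest adjusted p of the 8 genes in B-1a cells and had a log2 fold change below 0 in every subset. The other 7 genes had adjusted p of at least 0.658 in B-1a cells, 0.839 in B-1b cells and 0.531 in B-2 cells.

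Pdcd1lg2 in B-1a cells was at 14.3, 18.8, 14.6 and 9.10 CPM in TET2-KO and at 25.2, 67.3, 43.9 and 48.3 CPM in WT libraries. The highest TET2-KO library was below the lowest WT library, as was the case for 3.38% of all genes tested. TET2-KO libraries had a log2 fold change of -1.67 ± 0.31, with an unadjusted p of 0.000309 and an adjusted p of 0.109. Leaving out the discordant libraries gave -1.69 ± 0.26 (adjusted p = 0.209), again without overlap, as for 7.59% of all genes, and over 8 fits with a library left out it ran from -1.88 to -1.45. The adjusted p was 4.43e-05 with DESeq2, which the study used for its differential analysis. It was 7.11e-12 without a filter on low counts and 0.00471 with all 21 libraries in a single fit. The call thus depended on the method, with log2 fold changes from -1.73 to -1.63 over these and the other methods.

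In B-1b cells Pdcd1lg2 was at 35.7, 27.3 and 29.3 CPM in TET2-KO and at 53.6, 25.6, 59.6 and 68.5 CPM in WT libraries. The groups overlapped through the library labelled WT 2. The log2 fold change was -0.73 ± 0.31 (adjusted p = 0.838). Non-overlapping groups were found for 3.93% of all genes with TET2-KO below WT and for 3.74% with TET2-KO above, and for 0 of the 8 genes. Leaving out the discordant libraries gave -1.06 ± 0.20 (adjusted p = 0.898), with TET2-KO below WT without overlap, as for 11% of all genes. In B-2 cells it was at 16.5, 14.7, 13.8 and 11.4 CPM in TET2-KO and at 22.6 and 24.1 CPM in WT libraries, without overlap, as for 7.24% of all genes tested. This gave a log2 fold change of -0.71 ± 0.21 (adjusted p = 0.531). The genotype effect in B-1a minus that in B-1b cells was -0.95 ± 0.45 on the log2 scale, and -0.64 ± 0.36 without the discordant libraries, and passed the test in neither fit (adjusted p = 1.00 in both).

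A fit with a single genotype coefficient over the 3 subsets was added after these values were seen. It gave Pdcd1lg2 a log2 fold change of -1.12 ± 0.20, or 2.18-fold lower in TET2-KO libraries (adjusted p = 0.0394), and 0.0398% of all genes tested were lower. The median log2 fold change of all genes in this fit was 0.13. Without the discordant libraries the value was -1.29 ± 0.17 (adjusted p = 0.000322), and then 0.219% of all genes were lower. With all libraries the call was lost, at adjusted p between 0.0507 and 0.0719, when any of 10 libraries was left out: B-1a WT 2 and 4, B-1b WT 3, B-1a TET2-KO 1, 2 and 3, B-1b TET2-KO 2 and 3, and B-2 TET2-KO 2 and 4. With the discordant libraries out, the call held in all 16 fits that left out a further library. The log2 fold change ran from -1.40 to -1.005 over the fits of both kinds. These fits enter libraries of the same number from different subsets as independent, which no label states. With the number within a genotype as a block, in limma voom with an estimated correlation, the call was lost with all libraries (-1.09 ± 0.26, adjusted p = 0.202) and held without the discordant libraries (-1.30 ± 0.19, adjusted p = 0.00382). Without a block limma voom gave -1.07 ± 0.21 (adjusted p = 0.0341). Cd80 had a log2 fold change of -0.42 ± 0.24 with all libraries (adjusted p = 0.321) and of -0.43 ± 0.20 without the discordant libraries (adjusted p = 0.878).

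Dendritic cells and macrophages also make PD-L2, and their markers were set beside it. The 8 dendritic cell markers summed to 16.8 to 22.6 CPM in TET2-KO and 18.9 to 77.2 CPM in WT B-1a libraries, to 15.7 to 27.0 CPM against 23.4 to 59.0 CPM in B-1b libraries, and to 24.9 to 45.7 CPM against 16.3 to 32.7 CPM in B-2 libraries. The 11 macrophage markers summed to 4833 to 28844 CPM in TET2-KO and 11305 to 30311 CPM in WT B-1a libraries. In B-1b libraries these sums were 6319 to 15239 CPM in TET2-KO and 12673 to 17516 CPM in WT. In B-2 libraries they were 4357 to 19772 CPM in TET2-KO and 9509 to 25584 CPM in WT. Xcr1 and Clec9a, which mark the cross-presenting subset of conventional dendritic cells and not the others, were at or under 1.18 CPM in every library. None of the tested dendritic cell and macrophage markers passed the test in any of the genotype comparisons. Pf4, of the mast cell and platelet list, had a log2 fold change of -1.43 ± 0.22 in the fit over the 3 subsets without the discordant libraries (adjusted p = 0.00536). Erythroid markers, like Pdcd1lg2, were mostly lower in TET2-KO libraries, without passing the test. They summed to 1.61 to 30.1 CPM in TET2-KO and 11.3 to 1702 CPM in WT B-1a libraries, and to 0.340 to 19.0 CPM against 0.886 to 150 CPM in B-1b and 0.644 to 31.8 CPM against 3.45 to 67.0 CPM in B-2 libraries. All 5 that could be tested had log2 fold changes below 0 in B-1a cells (median -6.34) and in B-1b cells (median -3.26), as had 4 of 5 in B-2 cells (median -1.26) and all 6 in the fit over the 3 subsets (median -4.09), and 0 of them passed. The part of these cells in the level of Pdcd1lg2 was not tested.

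Other genes of the B7 family were set beside Pdcd1lg2. Cd274 was at 41.5, 55.3, 53.0 and 31.6 CPM in TET2-KO and at 31.2, 59.9, 51.9 and 45.4 CPM in WT B-1a libraries, with overlap. In B-1b libraries Cd274 was at 42.4, 50.6 and 50.5 CPM in TET2-KO and at 47.4, 31.6, 48.0 and 56.1 CPM in WT libraries, again with overlap. In B-2 libraries it was at 21.6, 16.3, 21.2 and 17.3 CPM in TET2-KO and at 60.2 and 22.9 CPM in WT libraries, the former in the discordant library, so that TET2-KO lay below WT without overlap, as for Pdcd1lg2. Cd86 was at 114, 95.8, 82.7 and 66.1 CPM in TET2-KO and at 87.4, 103, 92.2 and 98.3 CPM in WT B-1a libraries, also with overlap. Of the 14 genes of the CD28 and B7 families, 7 had enough counts to be tested between genotypes in B-1a cells, with all libraries. In B-1b cells 8 were tested, in B-2 cells 9 and over the 3 subsets 12, and 0 passed in any of these comparisons. Whether their change differed from that of Pdcd1lg2 was not tested.

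**Figure D4:**
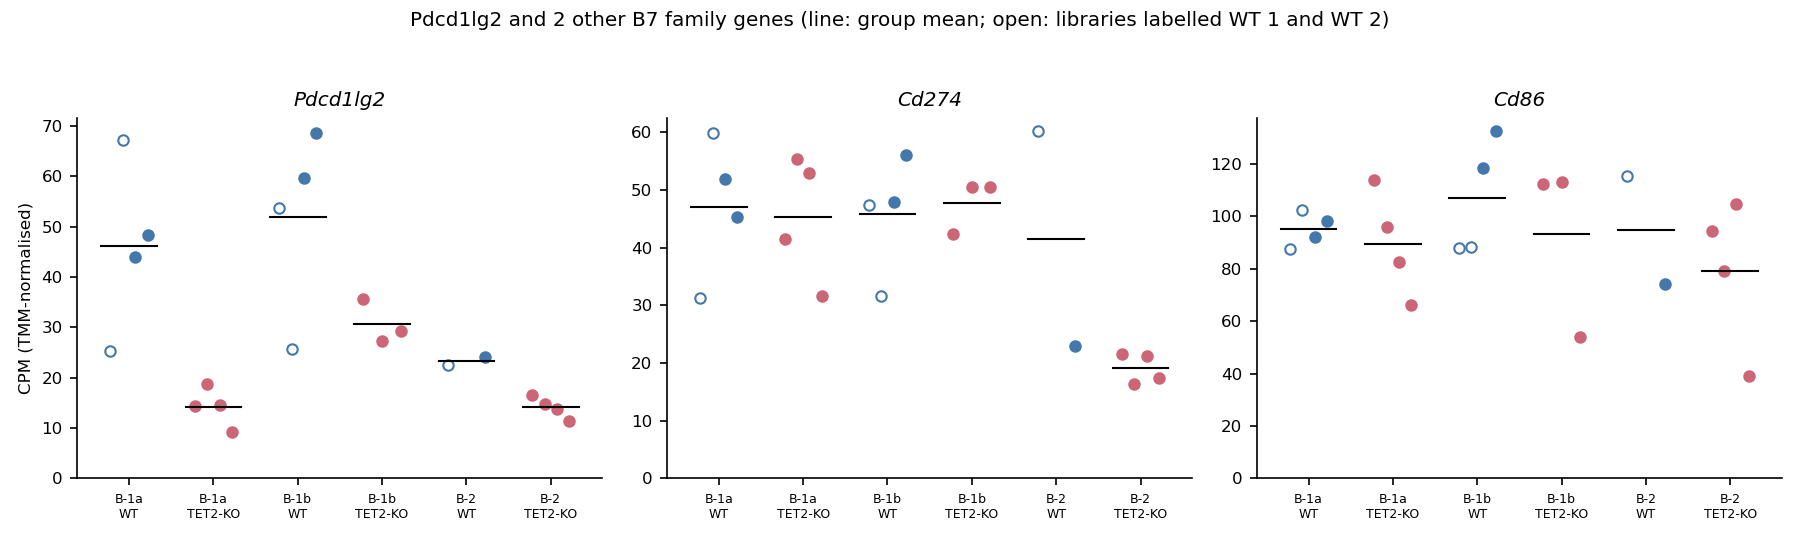
Level of Pdcd1lg2, Cd274 and Cd86 (y axes, CPM, from 0) in each library by subset and genotype (x axis). Points are libraries, lines are group means, and open points are the discordant libraries. Pdcd1lg2 is lower in TET2-KO than in WT libraries of B-1a and B-2 cells without overlap, Cd274 is lower without overlap in B-2 cells, and Cd274 and Cd86 overlap between genotypes in B-1a cells.

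In B-2 cells all 8 genes had a log2 fold change below 0 in TET2-KO relative to WT libraries, with a median of -0.81 beside 0.18 over all genes tested. For 4 of them the size of the change rested on the library labelled WT 1, whose B-1 markers were high. Without that library 5 of the 8 genes stayed below 0. Ctla4 was at 62.9 CPM in that library and at 13.6 CPM in the other WT library, where the TET2-KO libraries ran from 7.85 to 16.6 CPM, and the log2 fold change went from -1.67 to -0.19 without it. Plscr1 went from -1.78 to 0.02, Spn from -0.92 to 0.05 and Cd80 from -1.02 to 0.07. Without the other WT library, number 4, the library that went against its label was the only WT library left. The log2 fold changes were then -2.36 for Ctla4, -2.53 for Plscr1 and -1.49 for Spn. Pdcd1lg2 was -0.76 without the library labelled WT 1.

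In B-1a cells the other members had log2 fold changes from -0.00 to 0.93, and without the discordant libraries from -0.32 to 0.30. Ctla4, at 9.22 and 28.9 CPM in B-1a WT 1 and WT 2 and at 112 and 136 CPM in the other WT libraries, went from 0.93 to 0.12. Cd5 went from 0.62 to -0.18. For Cd5 in B-1b cells it went from -0.73 to 0.73 without these libraries, of which WT 1 had 18.6 CPM. None of these values passed the test. Without the discordant libraries, Ptprc was above WT without overlap in B-1a cells, as for 4.84% of all genes, and Cd5, Spn and Ptprc were above WT without overlap in B-1b cells, as for 7.95%. Cd80 and Pdcd1lg2 were below WT without overlap in B-1b cells, as for 11% of all genes, with a log2 fold change of -0.73 ± 0.31 for Cd80 (adjusted p = 0.999).

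**Figure D5:**
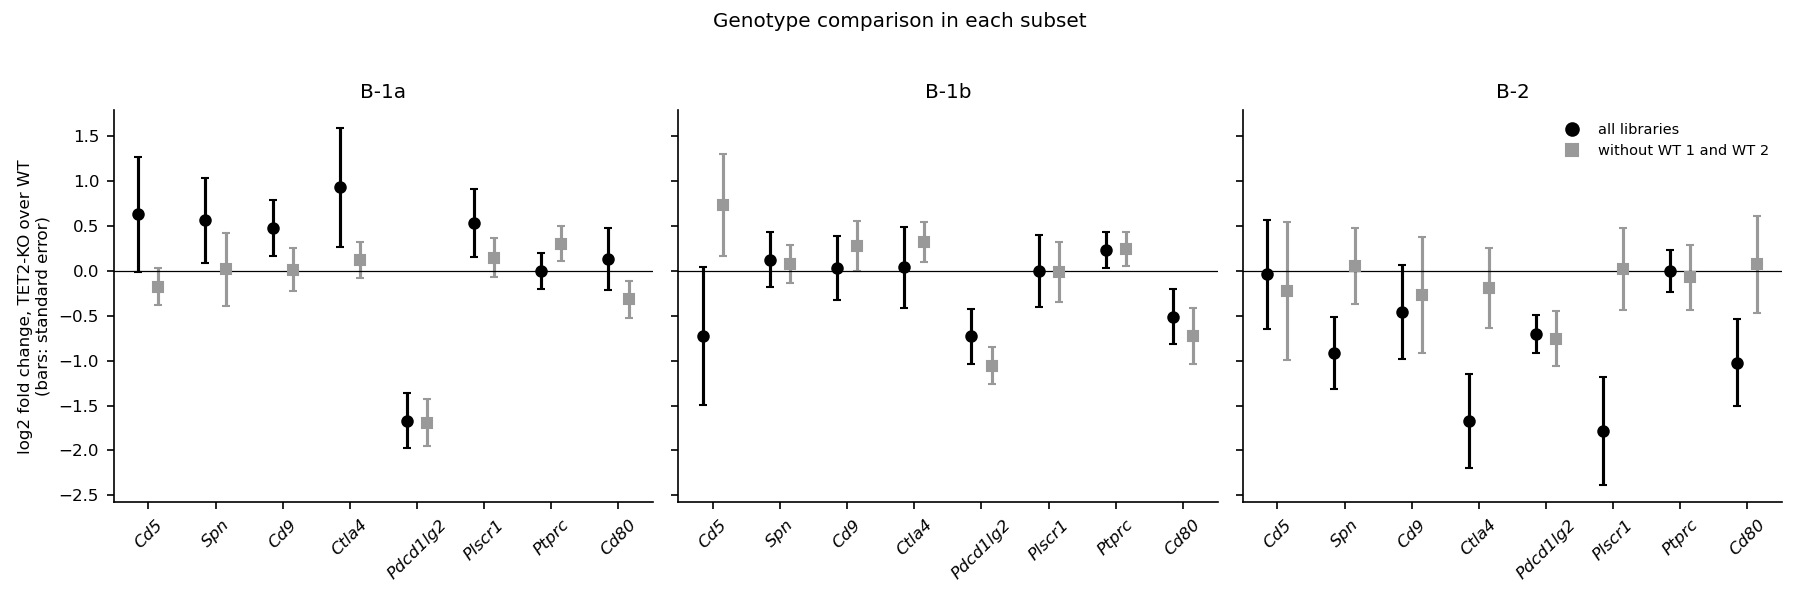
Log2 fold change of the 8 genes in TET2-KO relative to WT libraries (y axis, with standard errors) in the 3 subsets, with all libraries (circles) and without the discordant libraries (squares). Pdcd1lg2 is below 0 in all 3 subsets in either fit, and the 4 low values of Ctla4, Plscr1, Spn and Cd80 in B-2 cells move to near 0 without these libraries.

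The genes whose levels over the 21 libraries were most like those of a member were found among 8198 genes with a mean of at least 10 CPM, by the root mean square difference of log2 levels after centring. Cd3g (0.61) and Pstpip2 (0.76) were nearest to Cd5, F11r (0.46) and Pstpip2 (0.46) to Ctla4, and Hmgn3 (0.27) and Ccdc28b (0.28) to Spn. Ctse (0.33) and Emb (0.40) were nearest to Pdcd1lg2, Lhpp (0.29) and Fah (0.34) to Plscr1, and Prkcz (0.31) and Mcoln2 (0.33) to Cd80. Ccr1 (0.34) and Evi5 (0.38) were nearest to Cd9, and Pwwp3a (0.13) and Chst15 (0.14) to Ptprc. The libraries share subsets, genotypes and depth, so this is a description of likeness with no test. Cd3g, a subunit of the T cell receptor complex, was at 12.9 to 36.5 CPM in TET2-KO B-1a libraries, in which Cd3e was at or under 1.89 CPM.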

How the data were processed

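RNA was extracted from the sorted cells with the Qiagen AllPrep kit and sequenced as ultra-low input paired-end libraries. The study's methods describe full-length cDNA from total RNA and the labels poly-T selection, so the selection step is uncertain. Per the file headers and labels, the authors used fastp for trimming and STAR for alignment (build GRCm39), and deposited raw counts per gene made without strand by featureCounts 1.6.1 on GENCODE vM32. Symbols were taken from GENCODE vM39 for 56310 of 56953 identifiers. Tests were edgeR's quasi-likelihood F tests (version 4.0.16, R 4.3.3) after filterByExpr and TMM, with p-values adjusted over all genes tested by Benjamini-Hochberg and a threshold of 0.05. Subsets were fitted separately for the genotype comparison, and all libraries of a genotype together for subset comparisons. The 8 genes and the lists were chosen with earlier results of these data known. Named beside them were, per list and comparison, at most 4 called genes with the largest change, defining markers, and the 2 most similar genes. Alternatives were DESeq2 1.42.0, its size factors in edgeR, other filters, TMM without immunoglobulin genes, all 21 libraries in a fit, blocking on the library number, leaving out libraries singly, and leaving out the discordant ones. The fit over 3 subsets, and its repeats in limma 3.58.1 voom without and with a block, were added after seeing the values. The fits were tested on simulated counts. Equal numbers were treated as pairs where there were 3 or more pairs and the deviations of each correlated above 0.1, which held for B-1a with B-1b TET2-KO libraries (r = 0.32, 0.17 and 0.23). The pairing comes from the data, since no label states a shared mouse. The block of that fit also covers the TET2-KO B-2 libraries, for which the rule was not met. Promoter windows are from the GRCm39 genome at GENCODE vM39 starts. The study reports a high purity of the sorted B-1a and B-1b cells within their parent gate, and shows purity checks by flow cytometry. Here sort purity was not checked beyond the genes given. Some genes of the marker lists are not reported here.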

Additional observations from a re-analysis of the deposited data

Results flagged for a closer look

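A library was examined for standing apart from the others of its group for the 8 genes in the 4 groups of 4 libraries, 32 sets in all, and chance alone sets apart about 1 in 20. Cd5 in the library labelled B-1b WT 1 was at 18.6 CPM, while the other 3 libraries of this group were between 2.09 and 3.20 CPM. This is 1 of the 5 discordant libraries. Spn in TET2-KO B-1a library 4 was at 61.3 CPM, and the other 3 libraries of the group were between 22.7 and 28.7 CPM. In that library Cd9 was at 315 CPM, the lowest of its group, and Timd4 at 22.1 CPM. It had 18941 genes with a count, and the other 3 libraries of the group had 26267 to 28140.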

How the results depend on the processing

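Among TET2-KO libraries 5 members were called for B-1a against B-2 cells in each of 11 fits with a library left out, and 5 or 6 in the other alternatives. These include Cd5, for which B-1a cells were selected. For B-1b against B-2 cells the number was 0 with all 21 libraries in 1 fit, which holds the 5 libraries that went against their labels, and 2 to 5 with a library left out. It was 2 without B-2 library 1, B-1b library 2 or B-2 library 2, and 3 without B-1a library 1, B-1b library 1 or 3, or B-2 library 3 or 4. For B-1a against B-1b cells it was 3 with DESeq2, 2 without a filter, 2 with the replicate block, 0 with all 21 libraries and 0 to 1 with a library left out, with 0 without B-1b library 1. Among WT libraries it was 4 without the 5 discordant ones, labelled WT 1 or WT 2, with Cd5, whose level helped to set them apart, included. The discordant libraries were left out for levels of subset markers, which bears on the other genes of that count too. For the genotype comparison the number was 1 in B-1a cells with DESeq2, 1 without a filter and 1 with all 21 libraries. In B-2 cells it was 1 without a filter and 0 with a TET2-KO library left out. With a WT library left out, 1 WT library remains, so no count is given. Over the 3 subsets together it was 0 to 1 with a library left out, and 0 with the replicate block in limma voom.

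Some log2 fold changes reversed. Without the discordant libraries, Cd5 turned to -0.18 in B-1a and 0.73 in B-1b cells, and Plscr1 to 0.021, Spn to 0.052 and Cd80 to 0.069 in B-2 cells. With a library left out, Cd5 in B-1b cells ran from -1.01 to 0.58, and in B-2 cells Plscr1 from -2.53 to 0.021, Spn from -1.49 to 0.052 and Cd80 from -1.61 to 0.069. Pdcd1lg2 for B-1a against B-2 cells was 0.0093 with all 21 libraries and ran from -0.17 to 0.14 with a library left out, and Ptprc for B-1b against B-2 cells ran from -0.21 to 0.0071. For WT B-1a against B-1b cells, Spn ran from -0.21 to 0.40, Cd9 from -0.12 to 0.50, Ctla4 from -0.49, without B-1a WT 4, to 0.62 and Pdcd1lg2 from -0.41 to 0.029. The cause of these changes was not tested.

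Counts over all genes moved more. The number called for B-1a against B-2 cells was 1080, with 608 to 3399 over the alternatives, left-out libraries included, and for B-1b against B-2 cells 399, with 7 to 2728. For B-1a against B-1b cells it was 38, with 6 to 141, and for the genotype comparison in B-1a cells 7, with 0 to 318. In B-1b cells it was 0, with 0 to 131. In B-2 cells it was 0, with 0 to 167 over the alternatives other than fits with a single library left out. The interaction had 0, with 0 to 144. In WT libraries it was 0, and 599 without the discordant ones. Over the 3 subsets together it was 12, and 69 without these libraries, 47 in limma voom and 1 with the block there. Where the rule for pairs was not met, the block gave 48 genes in B-1a and 0 in B-1b and B-2 cells for the genotype comparison, 1638 for B-1a and 667 for B-1b against B-2 cells, where Cd9 passed in B-1a (adjusted p = 0.00575) and Cd80 did not in B-1b cells (0.0520). DESeq2 gave no value for Cd5 in the B-1b genotype comparison. With 2 WT libraries of B-2 cells, and 1 of these going against its label, the genotype comparison there rests on few libraries.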
